A study of Pimephales promelas with 191 samples.

Results

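Male livers of the fathead minnow (Pimephales promelas), a small freshwater fish used widely in aquatic toxicology, were profiled by RNA sequencing with and without metformin in the exposure. Every library of the series entered the comparison, 96 with metformin and 95 without it. The 96 comprised 48 libraries of fish given metformin at 41 µg/L and 48 of fish given a mixture of metformin at 41 µg/L and guanylurea at 100 µg/L. The 95 comprised 47 libraries of fish given guanylurea at 100 µg/L and 48 control libraries. Adult fish were collected at 6, 24, 48 and 96 h, with 12 libraries for each treatment and time except guanylurea at 24 h, which had 11. The effect of metformin was the mean of the metformin and mixture groups minus the mean of the guanylurea and control groups of the same time, so that guanylurea was equally represented on both sides. Strain, genotype and tank are not among the labels. Nor do they state that each library came from its own fish, so a p-value here reflects the spread between libraries, which may be technical.

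Metformin, the biguanide given to people with type II diabetes, is excreted largely unmetabolised and reaches rivers through sewage. In mammals it is taken up into hepatocytes by organic cation transporters, inhibits complex I of the mitochondrial respiratory chain, activates the energy sensor AMPK and lowers hepatic glucose output. Microbes convert it to guanylurea, which persists in treated water. In male fish the liver is also the tissue in which estrogenic contaminants switch on vitellogenin, the egg yolk precursor, which is why male liver is profiled for endocrine effects. The gene identifiers of the deposited tables could be paired with no symbols (0 of 26150 matched the RefSeq gene table of the species). For that reason no value can be given here for gluconeogenic, complex I or vitellogenin genes, and the tissue label could not be compared with liver markers. Genes are described by level, by size of effect and by the libraries that carried them.

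Metformin moved no library-wide measure past the threshold. Libraries with metformin held a mean of 19.3 M counts (M, mega) ± 2.23 (SD, n = 96), against 20.0 M ± 2.85 without it (SD, n = 95), and single libraries held 12.7 to 28.0 M. Among 6 library measures (total counts, genes with a count, the share of the 10 most abundant genes and scores on 3 principal components of log2 expression), the smallest p was 0.063, for total counts. It came from a two-sided permutation test of the metformin label within time and guanylurea level, with 100000 resamples, and was 0.378 after Benjamini-Hochberg adjustment. The 10 most abundant genes took 30.0% of counts with metformin and 29.3% without it. On the first component, which held 7.46% of the variance, metformin accounted for 1.17% of the spread and collection time for 0.859%. On the second, which held 5.74%, metformin accounted for 0.465%, collection time for 7.31% and the replicate number in the labels, whose meaning they do not give, for 21.1%. On the third component, which held 4.08%, metformin accounted for 0.0319%, collection time for 21.0% and replicate number for 15.04%. Replicate number has more levels than time, and time more than metformin, and a label of more levels takes a larger share by itself. How much of these shares comes from the levels was not tested. On the first component replicate number accounted for 2.78%. A group of 8 libraries, 4 with metformin and 4 without it, agreed poorly with the others of their own treatment and time, and results that rest on them are also given without them. Among the 8 was the control library numbered 12 at 48 h, which recurs in the results.

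Averaged over the 4 times, 10 of 18145 genes differed with metformin by the quasi-likelihood test of edgeR, 0.0551% of those tested. A gene was called when its p, adjusted by the Benjamini-Hochberg method, was under 0.05. Of the 10, 7 genes (0.0386%) were higher with metformin and 3 (0.0165%) were lower. At an unadjusted p under 0.05 there were 1262 genes, 6.96% of those tested, where 907.25 would be expected with no effect. DESeq2 called 8 genes, of which 4 were among the 10, and limma voom called 1, which was not. Without the 8 libraries of low agreement 9 genes passed, 7 of them among the 10. Without the 6 h libraries 16 genes passed, 4 higher and 12 lower with metformin, so the balance of directions turned. Without the 24, 48 or 96 h libraries 5, 3 and 6 genes passed. These were bulk livers, in which fewer cells of a type and less RNA per cell cannot be told apart.

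The averaged effect of metformin was small beside the spread between libraries. Levels are in CPM, counts scaled per mega (M) of library total. Between means of log2 CPM, the median absolute difference was 0.06, and 95% of genes lay within 0.24. The median standard deviation among libraries of 1 group was 0.56, and the median gene's effect was 0.105 of its own standard deviation. No gene had an effect of 1 within-group standard deviation or more, and 8 exceeded 0.5. A difference over 1.5-fold occurred in 42 genes, 16 higher and 26 lower with metformin. Their median within-group standard deviation was 2.16, against 0.56 over all genes, and 3 of them were called. All 4 genes past 2-fold were higher with metformin and none passed the test, at adjusted p from 0.110 to 0.855 and within-group standard deviations of 2.72 to 4.27.

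**Figure D1:**
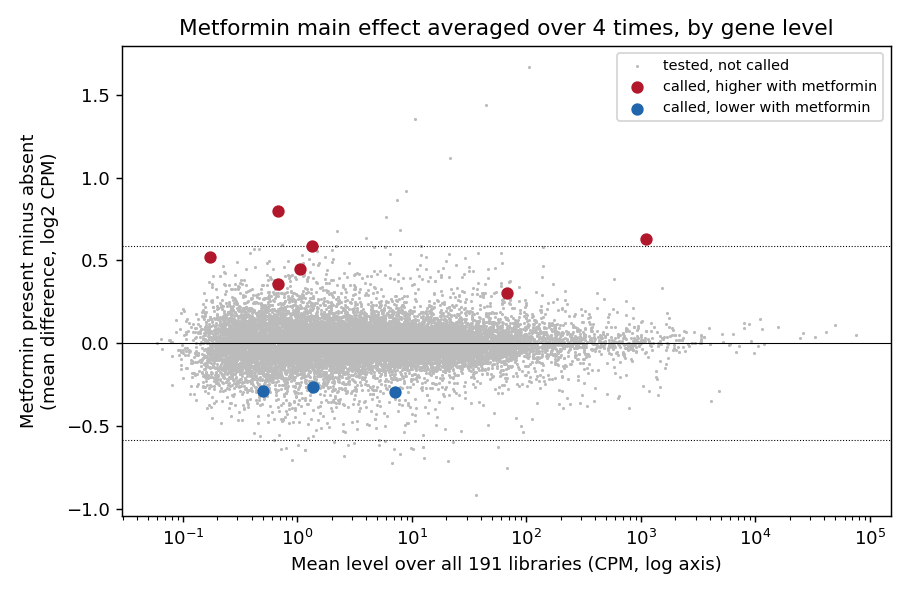
Difference between means with and without metformin, averaged over the 4 times (log2 CPM, vertical axis), against the mean level of each of 18145 genes over all libraries (CPM, log axis), with dotted lines at 1.5-fold. The 7 genes called higher and the 3 called lower lie inside or near the cloud of all genes, and the 4 genes past 2-fold are not called.

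Precision depended on expression level. The 95% interval of the averaged effect came from a limma fit of log2 CPM. It lay within 1.5-fold for 93.8% of genes and within 2-fold for 99.3%. Its median reach was 0.159 on the log2 scale to either side. For metformin against control alone, 83.5% of intervals lay within 1.5-fold, and for mixture against guanylurea 80.9%. Log2 CPM as computed here understates changes of low genes, so their intervals bound the log2 CPM difference and not the fold change of the edgeR test. For the averaged effect a 1.25-fold bound was met by 71.5% of genes. In the 4035 genes under a mean of 1 CPM the within-group standard deviation had a median of 0.89, and 40.0% of intervals lay within 1.25-fold. In the 7817 genes between 1 and 10 CPM that share was 74.9%, in the 5390 genes between 10 and 100 CPM it was 88.3%, and in the 903 genes at 100 CPM or more it was 82.5%. The called genes numbered 4, 4, 1 and 1 in these 4 classes from low to high. Median absolute differences were 0.09, 0.06, 0.04 and 0.05 on the log2 scale in the same order. Among the 100 most abundant genes, which hold the transcripts that dominate a liver library, differences ran from −0.34 to 0.33 on the log2 scale. With metformin 61 of them were higher and 39 lower, against 48.3% higher over all genes tested. Genes of 1 library are not independent, and the split was not tested. Intervals of all 100 lay within 2-fold and those of 97 within 1.5-fold, and 3 genes had an unadjusted p under 0.05.

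**Figure D2:**
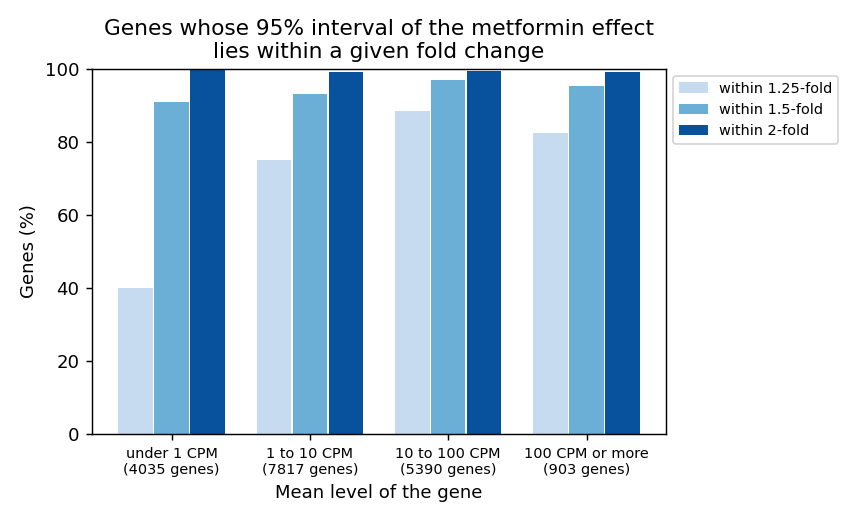
Percentage of genes whose 95% interval of the averaged metformin effect (difference between means of log2 CPM) lies within 1.25-fold, 1.5-fold or 2-fold, in 4 classes of mean level (CPM). The share within 2-fold is 99% or more in every class, and the share within 1.25-fold is lowest, at 40.0%, under 1 CPM.

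The transcripts of the 10 called genes were concentrated in few libraries. Their fitted log2 fold changes had a median size of 1.78, and 8 of the 10 were at 2-fold or more, but between means of log2 CPM the median size was 0.40. The 3 highest libraries of a called gene held a median of 25% of its summed CPM over all libraries (10.02% to 84.1%), against 3.86% for all genes tested. The median level over libraries was under 1 CPM for 7 of the 10. A mean under 1 CPM occurred in 4 of the 10, against 22.2% of all genes tested. The shares of the 3 highest libraries were thus not compared between genes of like level. In 9 of the 10 the highest library lay on the side called as higher, as selection on the same libraries favours by itself. The direction was the same in both arms, metformin against control and mixture against guanylurea, for 9 of the 10, as selection on the mean of both arms favours by itself. Group medians, summed over the 2 groups with metformin and over the 2 without it, lay in the called order at all 4 times for 2 genes. At each time there are 2 pairs of groups with and without metformin at the same guanylurea level. At least 1 of these pairs had medians in the called order at 1 to 4 of the 4 times, depending on the gene. When each called gene's own highest library was left out, an alternative added after the data were seen, 5 genes stayed called and 5 did not, at adjusted p from 1.89e-06 to 0.535.

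Of the genes called with a mean of at least 1 CPM, the pair of smallest p in each direction is named. FMg002315 was the gene of smallest p, higher with metformin at a log2 fold change of 3.06 (SE 0.43, edgeR adjusted p = 5.99e-07). Its CPM ran from 0 to 22.4 with a median of 0.0523 in 48 metformin libraries, against 0 to 1.31 with a median of 0.0546 in 48 control libraries. In the mixture it ran from 0 to 82.5 with a median of 0.0572, against 0 to 2.31 with a median of 0.0431 with guanylurea. The medians lay close together in both arms, the highest values were in libraries with metformin, and 66 libraries had no count.

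The difference in means, 1.95 CPM with metformin and 0.152 CPM without it, was carried by single high libraries. The highest was the mixture library numbered 2 at 6 h, with 82.5 CPM, which held 44.0% of the summed CPM of the metformin side. The next were 1 mixture library at 24 h with 29.1 CPM, 1 mixture library at 96 h with 25.97 CPM and 1 metformin library at 96 h with 22.4 CPM. Without the highest library the fold change was 2.20 (adjusted p = 0.00714). Between means of log2 CPM the difference was 0.45 (95% interval −0.0025 to 0.90), limma voom gave 0.65 (adjusted p = 0.686), and DESeq2, which replaces outlying counts, gave −0.26 (adjusted p = 0.902).

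FMg018401 was also higher with metformin, at a log2 fold change of 1.79 (SE 0.34, edgeR adjusted p = 0.00428), and its 3 highest libraries held 24.7% of the summed CPM of the metformin side, against 73.3% for FMg002315. It ran from 0 to 14.4 CPM with a median of 0.231 in metformin libraries, against 0 to 8.26 with a median of 0.197 in controls. In the mixture it ran from 0 to 20.3 CPM with a median of 0.260, against 0 to 7.25 with a median of 0.231 with guanylurea. Medians were close, and the difference lay in the upper part of each group. The upper quartile was 0.634 CPM with metformin against 0.346 in controls, and 0.460 with the mixture against 0.321 with guanylurea. Its mean was 1.94 CPM with metformin and 0.725 CPM without it. The highest library, the mixture numbered 5 at 48 h, held 10.9% of the metformin side, and without it the fold change was 1.61 (adjusted p = 0.0129). DESeq2 gave 1.82 (adjusted p = 1.88e-04) and limma voom 0.72 (adjusted p = 0.678), while the difference between means of log2 CPM was 0.59 (95% interval 0.08 to 1.09). When the 6, 48 or 96 h libraries were left out the fold change was 1.60, 1.81 and 1.76, and adjusted p exceeded the threshold at 0.0775, 0.0503 and 0.0519. Without the 24 h libraries it was 2.01 and passed (edgeR adjusted p = 0.00656).

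Both named genes that were lower with metformin rested on the control library numbered 12 at 48 h, 1 of the 8 of low agreement. FMg020489 had a log2 fold change of −1.78 (SE 0.36, edgeR adjusted p = 0.00782). It ran from 0 to 1.36 CPM with a median of 0.118 in metformin libraries, against 0 to 192 with a median of 0.111 in controls. In the mixture it ran from 0 to 5.17 CPM with a median of 0.0984, against 0 to 18.9 with a median of 0.0744 with guanylurea. The value of 192 CPM belonged to that control library and made up 79.3% of the summed CPM of all libraries without metformin. Without it the fold change was −0.86 (adjusted p = 0.535), without the 8 libraries of low agreement it was −0.72 (adjusted p = 0.584), and in DESeq2 it was 0.0046 (adjusted p = 0.999).

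FMg004686 had a log2 fold change of −1.05 (SE 0.23, edgeR adjusted p = 0.0273), with means of 3.30 CPM with metformin and 10.9 CPM without it. It ran from 0.284 to 18.6 CPM with a median of 2.70 in metformin libraries, against 0.280 to 404 with a median of 2.46 in controls. In the mixture it ran from 0.415 to 24.6 CPM with a median of 2.38, against 0.306 to 228 with a median of 2.67 with guanylurea. The medians differed in opposite directions in the 2 arms. By time, the group medians at 24 h were 4.35 CPM in the mixture and 1.53 CPM with guanylurea, and at 96 h they were 2.26 and 0.848 CPM. Both were opposite to the called direction. At 6 h the medians were 2.86 CPM in the mixture and 3.77 CPM with guanylurea. At 48 h they were 2.24 and 3.27 CPM, and both times lay in the called direction. The arm of metformin against control went the other way at each time. Its medians were 2.70 against 2.39 CPM at 6 h and 2.71 against 2.01 CPM at 48 h, opposite to the called direction. At 24 h they were 3.60 against 4.21 CPM and at 96 h 1.91 against 1.97 CPM, in the called direction. Without the control library of 404 CPM the fold change was −0.61 (adjusted p = 0.486), and without the libraries of low agreement −0.54 (adjusted p = 0.513). In the fits of 6, 24, 48 and 96 h alone it was −0.71, −1.24, −2.70 and 0.43, and none of these passed (adjusted p = 1.0, 1.0, 0.317 and 0.882). In 12 of the 16 groups, FMg020489 and FMg004686 had their highest value in the same library.

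**Figure D3:**
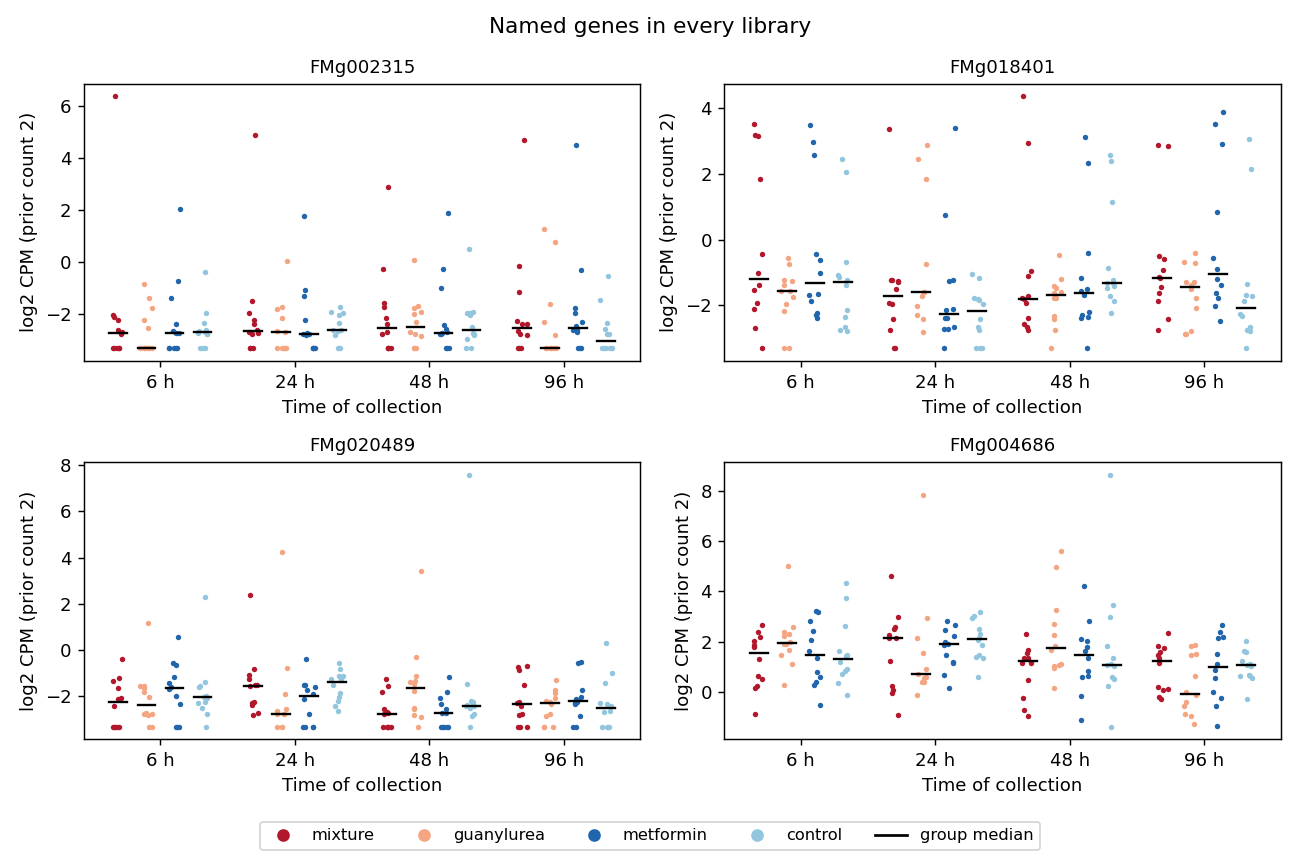
Level of the 4 named genes (log2 CPM with a prior count of 2, vertical axis) in every library, by time of collection and treatment, with bars at the group medians. Single libraries stand far above their group medians, such as the mixture library of 82.5 CPM for FMg002315 and 1 control library at 48 h, which is the highest for both FMg020489 (192 CPM) and FMg004686 (404 CPM). Some group medians of the same time lie apart, as for FMg004686 at 24 h with 4.35 CPM in the mixture and 1.53 CPM with guanylurea, opposite to its called direction. At 48 h they are 2.24 CPM in the mixture and 3.27 CPM with guanylurea, in the called direction. Those of metformin and control at 48 h are 2.71 and 2.01 CPM, opposite to it.

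The most abundant of the called genes was singled out after its values were seen. It averaged 1275 CPM with metformin and 939.5 CPM without it, at a log2 fold change of 0.68 (SE 0.15, edgeR adjusted p = 0.0273). The difference lay in the arm with guanylurea. There it ran from 207 to 7923 CPM with a median of 833 in the mixture, against 51.8 to 1403 with a median of 320 with guanylurea. Without guanylurea it ran from 294 to 6087 CPM with a median of 1073 in metformin libraries, against 301 to 7190 with a median of 1195 in controls.

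At 6, 24, 48 and 96 h, 12, 12, 10 and 9 of the 12 mixture libraries lay above the guanylurea median of the same time. Metformin libraries lay above the control median in 24 of 48. The log2 fold change was 1.45 with guanylurea present (SE 0.22, adjusted p = 1.03e-05) and −0.09 with it absent (SE 0.22, adjusted p = 0.934), both in edgeR. Those effects differed by 1.54 (SE 0.31, adjusted p = 0.00530 in the test of the difference). Group medians at 6, 24, 48 and 96 h were 709, 1093, 1325 and 608 CPM in the mixture, against 242, 297, 476 and 314 CPM with guanylurea. With metformin alone they were 1025, 1159, 1188 and 1028 CPM, against 1132, 1940, 1216 and 963 CPM in controls. In the fits of single times the metformin effect was 0.999, 0.61, 0.54 and 0.58 in time order, and none passed (adjusted p of 0.859 or more). Without its highest library, the mixture numbered 12 at 6 h, the averaged fold change was 0.58 (adjusted p = 0.128). Limma voom gave 0.58 (adjusted p = 0.465). Without the 6, 24, 48 or 96 h libraries the edgeR fold change was 0.58, 0.71, 0.73 and 0.72. It passed in none (adjusted p = 0.322, 0.168, 0.0825 and 0.0915). DESeq2 kept the call at 0.68 (adjusted p = 0.0146). EdgeR kept it without the libraries of low agreement (0.72, adjusted p = 0.0165) and without the 96 h controls numbered 2 and 4 (0.69, adjusted p = 0.0455). The call held under 5 alternatives and was lost under 7. By the main effect averaged over times this gene was also lower with guanylurea, at −0.87 (edgeR adjusted p = 5.09e-04), and is the 1 gene called for both compounds. Both main effects share the guanylurea group, which had the lowest median at every time.

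**Figure D4:**
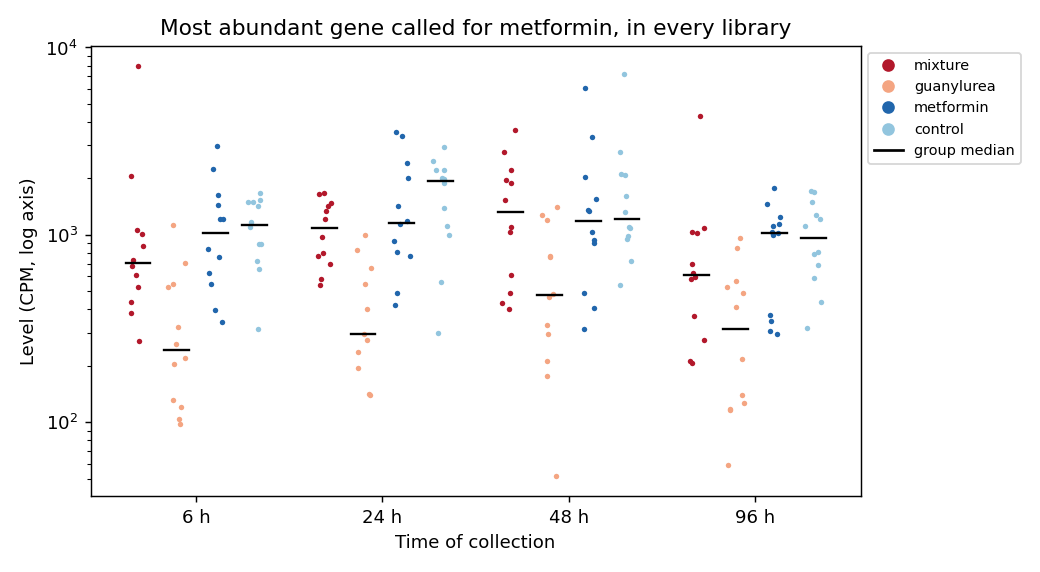
Level of the most abundant called gene (CPM, log axis) in every library, by time of collection and treatment, with bars at the group medians. The guanylurea group has the lowest median at every time, 242 to 476 CPM, and the mixture, metformin and control groups have medians of 608 to 1940 CPM.

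A second abundant called gene, also singled out after its values were seen, averaged 90.5 CPM with metformin and 45.1 CPM without it, while medians were 35.2 and 31.7 CPM. Its log2 fold change was 0.91 (SE 0.20, edgeR adjusted p = 0.0273). The highest value, 2255 CPM, came from the same mixture library at 6 h that was highest for the first gene, and without it the fold change was 0.61 (adjusted p = 0.310). Limma voom gave 0.28 (adjusted p = 0.742), and the difference between means of log2 CPM had a 95% interval of −0.05 to 0.65. Without the 6, 24 or 96 h libraries the fold change was 0.79, 0.84 and 0.87, and it did not pass (adjusted p = 0.215, 0.292 and 0.220). Without the 48 h libraries it was 1.11 and passed (edgeR adjusted p = 0.0352). DESeq2 kept the call at 0.90 (adjusted p = 0.00922), as did edgeR without the libraries of low agreement (0.99, adjusted p = 0.0149). The call held under 6 alternatives and was lost under 6. Both genes had their highest value in the same library in 8 of 16 groups.

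At single times, calls for metformin differed between a fit of that time alone and a joint fit. EdgeR, run on the libraries of each time alone, called 0 genes (0%) each time, out of 16112, 16416, 16608 and 16436 genes tested at 6, 24, 48 and 96 h. Fitted jointly over every library, edgeR gave 3, 10, 4 and 13 calls at these times, out of the 18145 genes that passed the filter over all libraries, so the fits differ in genes tested as well as in libraries. In the fits of single times the smallest adjusted p was 0.983, 0.673, 0.317 and 0.248 in the same order. Before adjustment, 564, 550, 881 and 975 genes had p under 0.05, beside 805.6, 820.8, 830.4 and 821.8 that no effect would give. The count from DESeq2 was 0, 0, 1 and 0, and that from limma voom was 0 each time (400, 572, 1254 and 1005 before adjustment). The 95% interval lay within 2-fold for 91.5%, 92.2%, 91.2% and 90.9% of genes, and within 1.5-fold for 72.6%, 74.1%, 71.2% and 72.1%. FMg002315 and FMg020489 had too few counts to be tested at any single time, and FMg018401 was tested at 6 h (log2 fold change 2.38, not called) and 96 h (1.89, not called).

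An F test of whether the metformin effect differed between the 4 times called 37 of 18145 genes, 0.204% of those tested. At an unadjusted p under 0.05 there were 801 genes, fewer than the 907.25 expected with no effect. The largest of the 4 log2 CPM differences by size fell at 24 h in 19 of the 37 genes, and at 6, 48 and 96 h in 7, 4 and 7. These genes also rested on few libraries. The highest library held a median of 28.5% and the 3 highest 55.6% of the summed CPM of a gene, against 1.46% and 3.86% over all genes tested. A single library held most of the total in 7 of the 37 genes, against 21 of all 18145. A mean under 1 CPM occurred in 15 of the 37, against 4035 (22.2%) of all genes. DESeq2 called 6 genes in this test and limma voom 0, with 529 at an unadjusted p under 0.05. The 37 include 2 genes of the averaged effect, FMg020489 (adjusted p = 0.000559) and FMg004686 (adjusted p = 0.0492), both with the 48 h control library described above.

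Between times, the metformin effects of the same gene were weakly related. The 4 times share no libraries, and over 18145 genes Pearson's r of the log2 CPM differences was 0.10 between 24 and 6 h, 0.207 between 48 and 6 h and −0.044 between 96 and 6 h. It was 0.015 between 48 and 24 h, 0.077 between 96 and 24 h and 0.031 between 96 and 48 h. Genes are not independent replicates, and depth and the tissue's composition are shared within a library. Genes with an unadjusted p under 0.01 in 3 times were read in the time left out. Of genes selected as higher with metformin, 73.1% of 93 kept their sign at 6 h, and of those selected as lower 51.6% of 153. For 24 h the shares were 70.4% of 98 higher genes and 55.8% of 190 lower genes. For 48 h they were 63.0% of 92 and 62.6% of 107, and for 96 h 53.8% of 130 and 58.5% of 188. In both directions together the median difference in the selected direction was 0.05, 0.03, 0.07 and 0.03 on the log2 scale. The effect had 1 sign at all 4 times in 3169 genes, 17.5% of those tested, with 1484 higher and 1685 lower with metformin. Times with no relation would give 12.5%.

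The main effect joins an arm without guanylurea (metformin against control) and an arm with it (mixture against guanylurea), which share no library. Averaged over times, the arm with guanylurea called 27 genes (0.149%), 19 higher (0.105%) and 8 lower (0.0441%) in the mixture, and the arm without it called 16 (0.0882%), 5 higher (0.0276%) and 11 lower (0.0606%) with metformin. None of the 27 was among the 16. Unrelated lists this short among 18145 genes would mostly share none either. Of the 27, 8 had the same sign in the other arm, where their median difference in the called direction was −0.13 on the log2 scale, against 0.49 in their own. Of the 16, 7 had the same sign in the other arm, with medians of −0.02 there and 0.50 in their own. Without the libraries of low agreement the arm with guanylurea called 224 genes, 85 higher and 139 lower, so the balance of directions turned. Under the same omission the arm without guanylurea called 0 (1784 at an unadjusted p under 0.05 in edgeR), and without the 96 h controls numbered 2 and 4 alone it called 3. DESeq2 gave 55 calls with guanylurea and 38 without it, and limma voom gave 387 and 5.

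A direct test of the difference between the arms called 240 of 18145 genes, 1.32% of those tested. In 116 of them (0.639%) metformin's effect was the higher one with guanylurea present, with median differences of 0.26 with guanylurea and −0.21 without it on the log2 scale. In the other 124 (0.683%) the medians were −0.21 with guanylurea and 0.22 without it. All 240 had effects of opposite sign in the arms and an averaged effect of median size 0.04, a pattern that selection on the difference favours by itself. The averaged effect called 1 of the 240, the abundant gene described above. Without the libraries of low agreement 482 genes passed, 170 of them with a higher and 312 with a lower effect when guanylurea was present. DESeq2 called 398 and limma voom 1381.

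Over all 18145 genes the arms were weakly and inversely related, with Pearson's r of −0.166, Spearman's rho of −0.192 and the same sign in 42.5% of genes. By time, from 6 to 96 h, r was −0.134, −0.232, −0.007 and −0.188. Genes with an unadjusted p under 0.01 with guanylurea present (697) kept their sign without it in 23.4%, at a median of −0.08 on the log2 scale in the selected direction. Genes so selected with guanylurea absent (647) kept it with guanylurea in 26.6%, at a median of −0.07. Arms with no relation would give 50%. Genes are not independent replicates, as all genes of an arm share its libraries, so r and these shares are a description.

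**Figure D5:**
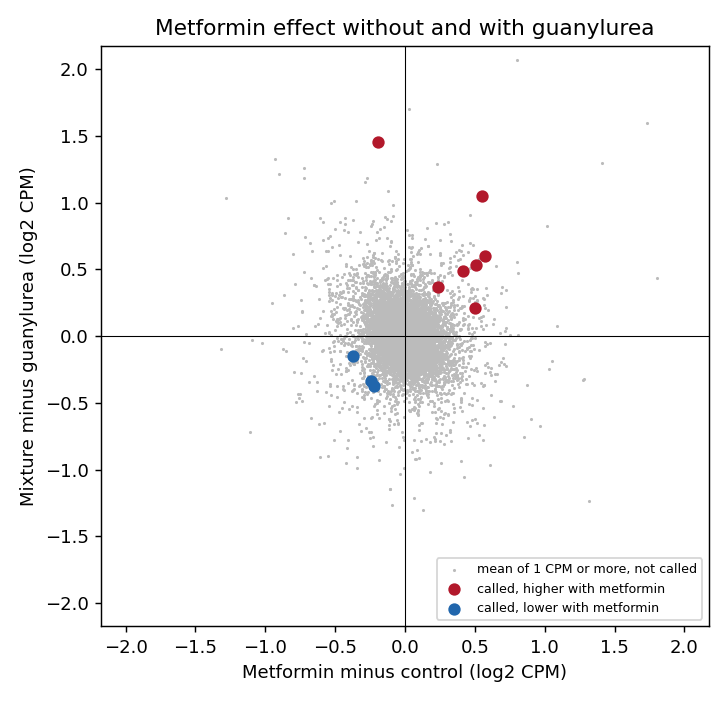
Metformin effect with guanylurea present (mixture minus guanylurea, log2 CPM, vertical axis) against the effect with it absent (metformin minus control, log2 CPM, horizontal axis), each averaged over the 4 times, for genes with a mean of 1 CPM or more and for all called genes. Of the 10 called genes 9 lie in the quadrants where both effects have 1 sign, which selection on the mean of both arms favours by itself. Over all 18145 genes Pearson's r is −0.166.

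For guanylurea the same balanced contrast, mixture and guanylurea against metformin and control, called 25 of 18145 genes averaged over times (0.138%), 1 higher (0.00551%) and 24 lower (0.132%) with guanylurea. In the fits of single times it called 0, 1 and 0 genes at 6, 24 and 48 h and 58 of 16436 genes (0.353%) at 96 h, while metformin had 0 calls at each of these times. In the joint fit of all libraries metformin had 13 calls at 96 h, 2 higher and 11 lower. Guanylurea was not tested at single times in that fit, so the 13 and the 58 come from unlike fits. Both main effects use every library, and the concentrations differ, at 41 µg/L of metformin and 100 µg/L of guanylurea, so the counts stand side by side and no dose-matched comparison of the compounds is possible. The 95% interval lay within 1.5-fold for 93.8% of genes for metformin and for 93.3% for guanylurea, so precision was nearly equal.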

How the data were processed

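Liver RNA was isolated with Tri-Reagent and stranded mRNA libraries were built, per the labels' protocols. Deposited by the authors were expected counts (estimated counts) for 26150 genes and 47578 transcripts, 1 column per library, all whole numbers. Bcl2fastq 1.8.4, Bowtie2 2.3.5 and RSEM 1.3.1 are named in the submitters' processing notes. RSEM divides reads that fit several genes, so near-identical copies have uncertain counts. Which genome build, annotation and strand setting were used is not given in the sources used here. None of the gene or transcript identifiers (0 of each) matched the RefSeq table of assembly fPimPro1.hap1.1 (64593 genes), so the marker and pathway lists were not tested.

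These were already whole, and edgeR 4.0.16 in R 4.3.3 was applied with filterByExpr (minimum count 10, minimum total 15), TMM scaling, robust quasi-likelihood fit, 1 mean per group, Benjamini-Hochberg adjustment over all genes tested. Averages, arms and the F test used 1 fit of all libraries, and single times used their own libraries. An SE beside an edgeR fold change was calculated back, as its size divided by the square root of the test's F statistic. CPM are TMM-scaled, and log2 CPM used a prior count of 2. Differences between means of log2 CPM understate changes of low genes. Intervals came from limma 3.58.1. A library had low agreement when its median correlation with its group fell more than 5 median absolute deviations short of the overall median, that is, under 0.896. No pair of libraries of 1 group agreed within sampling noise (smallest chi-square per degree of freedom 33.7). Fits were tested on simulated data.

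Alternatives were DESeq2 1.42.0, limma voom with quality weights, DESeq2 size factors, an unfiltered table, transcripts instead of genes, a replicate-number block, a threshold of 0.10, 1 fit for all times, and libraries or times left out. The contrast, lists and tests were chosen with earlier results of these data known. The rule for named genes took, among called genes with a mean of at least 1 CPM, the 2 of smallest p in each direction. Without gene names or a genome, no sequences are given.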

Additional observations from a re-analysis of the deposited data

Results flagged for a closer look

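The metformin effect differed between times in 37 genes by the F test, and FMg020489 (adjusted p = 0.000559) and FMg004686 (adjusted p = 0.0492), 2 of the 3 genes called as lower, were among them. For both, the 48 h control library numbered 12, which agreed poorly with its group, held the highest value, and its part in the F test was not tested on its own. With all 8 libraries of low agreement left out, the F test called 40 genes.

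The metformin effect differed with and without guanylurea in 240 genes by the test of that difference. The most abundant called gene was 1 of them, with effects that differed by 1.54 on the log2 scale. Its medians were 833 CPM in the mixture, 320 CPM with guanylurea, 1073 CPM with metformin and 1195 CPM in controls.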

How the results depend on the processing

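Averaged over times, the 10 calls became 1 in limma voom, 24 with no low-count filter (12 higher and 12 lower), 2 under the replicate block and 96 of 27602 in the transcript table. They became 16, 5, 3 and 6 without the 6, 24, 48 and 96 h libraries, of which 4, 3, 2 and 4 were among the 10. The count stayed within 1.5 times in DESeq2 (8), with DESeq2 size factors (10), without the libraries of low agreement (9), without the 96 h controls numbered 2 and 4 (7) and at a threshold of 0.10 (15). At single times, a joint fit gave 3, 10, 4 and 13 calls in time order. At 48 h DESeq2 called 1 gene and the unfiltered fit 3, and at 96 h the unfiltered fit called 1. Leaving out each of the 48 libraries at 96 h gave 0 to 0 calls.

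The F test's 37 became 6 in DESeq2, 0 in limma voom, 105 with no filter and 1 under the block. The 16 without guanylurea became 38 in DESeq2, 5 in limma voom, 34 with no filter, 0 without libraries of low agreement, 0 under the block (1966 at an unadjusted p under 0.05 in edgeR), 3 without the 96 h controls and 59 at 0.10. The 27 with guanylurea became 55 in DESeq2, 387 in limma voom, 46 with no filter, 224 without libraries of low agreement and 75 at 0.10. The 240 of the difference became 398 in DESeq2, 1381 in limma voom, 482 without libraries of low agreement and 659 at 0.10. In DESeq2 FMg002315 turned to −0.26 and FMg020489 to 0.0046. The cause was not tested. FMg002315 kept its call and direction under 9 alternatives, FMg018401 under 8, FMg020489 under 5 and FMg004686 under 3, and lost the call under 3, 4, 7 and 9. Under the replicate block in edgeR, FMg002315 was at 2.14 (adjusted p = 0.0574) and FMg018401 at 1.70 (adjusted p = 0.0384). FMg020489 was at −1.23 and FMg004686 at −0.74 (adjusted p = 0.609 for both). Under the same block the 2 abundant genes were at 0.64 (adjusted p = 0.0574) and 0.54 (adjusted p = 0.629).

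The labels do not say what a replicate number marks. Over 95 same-numbered pairs the median correlation of deviations was −0.016, with 16 above 0.1 and 8 best matched to their own number. The numbers were therefore not taken as pairs. That check compared single libraries, so it cannot exclude a difference shared by all libraries of 1 number. The number did account for 21.1% of the spread on the second principal component and for 15.04% on the third. Low counts limit the genes under 1 CPM most.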

Other observations

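In 170 genes (0.937% of 18145) the difference between means of log2 CPM with metformin had the same sign in all 8 pairs of groups that share a time and a guanylurea level, 82 higher and 88 lower, where pairs with no relation would give 0.781%. Their averaged difference was 0.17 at the median (log2, absolute) and reached 0.64, and 2 of them were among the 10 called genes. Among the 7 genes called as higher with metformin, the median log2 CPM difference was 0.46, 0.55, 0.38 and 0.59 at 6, 24, 48 and 96 h. Among the 3 called as lower it was −0.37, −0.15, −0.87 and 0.23, so at 96 h the median lay on the opposite side. These genes were selected on the same libraries, so the values are a description.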
